A study of Mus musculus with 3 samples.

Results

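The genes described here are 10 core components of the machinery that takes a cell through the G1 phase: the D-type cyclins Ccnd1, Ccnd2 and Ccnd3, the kinases Cdk4, Cdk6 and Cdk2, the kinase inhibitors Cdkn1b, Cdkn1c and Cdkn2c, and the pocket protein gene Rb1. They were chosen by symbol, as every probe other than a control spot that the array files name for these genes. That gave 10 of 22214 genes tested, and 19 of 41174 probes, printed as 46 spots. All 19 probes passed the filter on dim probes, and all were well above background in the 3 mutant and the 3 control libraries, so no member is missing from what follows.

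The cells were multipotent progenitors (MPPs) of mouse bone marrow, sorted as positive for c-kit and Sca-1 and negative for CD3, B220, Ter119, gr-1 and mac1. The mutant cells came from mice with floxed Mef2c alleles and the Mx1-Cre transgene, and the control cells from mice with the floxed alleles and no Cre. Mx1-Cre is switched on by interferon, and both groups were given poly(I:C), a synthetic RNA that induces interferon, at 250 µg on each of 4 days and were taken 2 days after the last dose. Cre itself therefore cannot be told apart from the loss of Mef2c, the deletion is not limited to MPPs, and the gate as stated holds stem cells as well. Ages are not given in the labels. The 3 arrays each carried cDNA of 1 mutant library, in the green dye Cy3, and 1 control library, in the red dye Cy5, made from 15000 sorted cells per library. The labels call the arrays replicates and do not say which animals they came from, so the spread behind the p-values is that of these libraries and may be technical.

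In G1, D-type cyclins are made in response to growth signals and bind Cdk4 or Cdk6. The active kinases phosphorylate the Rb1 protein, which otherwise holds back the E2F transcription factors, and Cdk2 with cyclin E completes that step before DNA replication starts. INK4 inhibitors such as the Cdkn2c product p18 block Cdk4 and Cdk6, while the CIP/KIP inhibitors p27 (Cdkn1b) and p57 (Cdkn1c) bind cyclin-kinase complexes more broadly. In the blood system, p18, p27 and p57 are known for their part in holding stem and progenitor cells in quiescence. Much of the control of p27 and of the cyclins acts on the protein, which arrays do not measure.

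Values are the log2 of mutant over control within an array, called ratios, or the normalized log2 signal of 1 library, called levels. A level depends on the probe as well as on the RNA, so levels were compared between libraries and never between genes. In a sorted bulk sample, fewer cells that make a transcript and less of it per cell cannot be told apart. The labels give no dye swap, so dye and genotype cannot be told apart as labelled. The authors' deposited log2 ratio of array 2 runs opposite to its labelled dyes, unlike those of arrays 1 and 3, so each result is given as labelled and, where it matters, with the sign of array 2 turned. The summed level of a list is the log2 of its genes' signals added on the linear scale, so its brightest probes weigh most. Control library 1 stood apart. In it the summed level of 16 measured of 17 listed immediate-early and stress genes, all well above background in every library, was 19.41, with 17.66 and 17.34 in controls 2 and 3 and 16.40 to 17.27 in the mutants. The summed level of 10 neutrophil markers, also well above background in every library, was 16.63 in control library 1, while controls 2 and 3 had 13.89 and 14.35 and the mutants 13.83 to 14.20. Of the gate's own markers, Kit had a mean ratio of -0.36 ± 0.51 and Ly6a, which encodes Sca-1, one of 0.82 ± 0.27 (SD, n = 3), both well above background in every library. The NM_025282 probe of Mef2c itself gave ratios of 0.08, 0.10 and -0.96 on arrays 1, 2 and 3 (mean -0.26 ± 0.61, SD), and its AK044643 probe a mean of 0.52 ± 0.48 (SD, n = 3). The latter was well above background in only 2 mutant libraries and 1 control library. Where these probes lie relative to the floxed segment is not known here, so they check neither the deletion nor the labels.

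No member passed the test of mutant against control MPPs. With limma's moderated test and Benjamini-Hochberg adjustment over all genes, 0 of 10 members passed an adjusted p of 0.05, where 0% of all 22214 genes passed. At an unadjusted p under 0.05 the count was also 0 of 10, beside 10.1% of all genes. The mean ratio was above 0 for 5 members and below 0 for 5, beside 45.4% and 54.6% of all genes. The members' median ratio was -0.00054, beside -0.04 for all genes. Levels of mutant and control libraries overlapped for all 10 members, whereas 18.9% of all genes had levels without overlap. The ratio had 1 sign on all 3 arrays for 2 members, Ccnd1 and Ccnd3, beside 35.5% of all genes. Both were above 0, beside 15.2% of all genes, and 0 members were below 0 throughout, beside 20.3%. The fit's precision at this size is limited: in simulated ratios with the spread of these arrays it recovered 0 of 67 genes changed 2-fold and 19 of 67 changed 4-fold. Even so, the whole 95% interval of the mean ratio lay within a 2-fold change in either direction for 7 of the 10 members. The exceptions were Ccnd1, Cdk6 and Cdkn1b. This count is for each gene's brightest probe with the dyes as labelled, and with array 2 turned it was 5. The intervals hold the spread of these libraries and no dye effect, so they do not bound the effect of losing Mef2c.

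**Figure D1:**
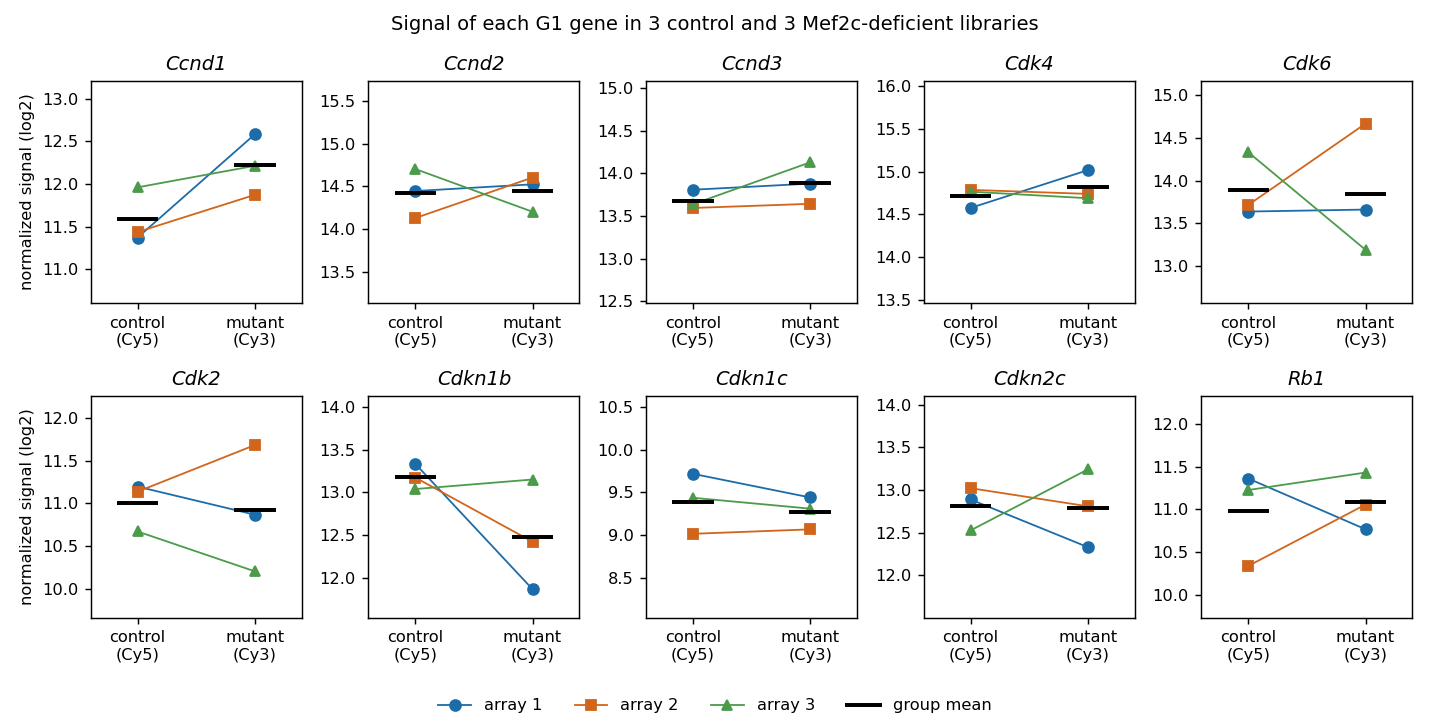
Normalized signal (log2) of each of the 10 G1 genes in 3 control libraries (Cy5) and 3 Mef2c-deficient libraries (Cy3). Lines join the libraries of 1 array, black bars are group means, each panel spans the same number of log2 units, and control and mutant points overlap in every panel.

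Among the D-type cyclins, Ccnd1 (NM_007631), which couples growth factor signals to the cell cycle, had the largest mean ratio. Its level was 12.58, 11.87 and 12.21 in mutant libraries 1, 2 and 3, and 11.37, 11.44 and 11.96 in the matching controls. Mutant library 1 was highest and control library 1 lowest, and mutant library 2 lay below control library 3, so the groups overlapped. The ratios were 1.21, 0.44 and 0.25, a mean of 0.63 ± 0.51 (SD, n = 3), or 1.55-fold, with a 95% interval of -0.02 to 1.28. By limma the adjusted p was 0.493 and the unadjusted p 0.055. The mean without array 1, which holds the control library that stood apart, was 0.34. The part of that library in the ratio was not tested beyond this value.

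The Ccnd1 probe was printed as 10 spots, of which 9 were used on each array. Within an array their ratios had SDs of 0.08, 0.03 and 0.09, and on array 3, where the ratio was smallest, the spots ran from 0.16 to 0.42. The spread of Ccnd1 between arrays was therefore several times the spread between its spots.

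Ccnd2 (NM_009829) encodes a D cyclin prominent in B lymphocytes and blood progenitors. Its brightest probe read 14.52, 14.60 and 14.20 in the mutants and 14.45, 14.13 and 14.70 in the controls. Control library 3 was the highest of the 6 and control library 2 the lowest, with all mutants between them. The ratios were 0.08, 0.47 and -0.50, a mean of 0.02 ± 0.49 (SD, n = 3; adjusted p = 0.983, limma). With the dyes as labelled, the 95% interval of -0.62 to 0.66 lay within a 2-fold change in either direction. Both other Ccnd2 probes gave means of -0.07 ± 0.24 and -0.0031 ± 0.22.

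Ccnd3 (NM_007632), the D cyclin required for the expansion of lymphoid and erythroid precursors, read 13.88, 13.64 and 14.13 in the mutants and 13.81, 13.60 and 13.64 in the controls. The mutant of each array was above its control, by 0.07, 0.05 and 0.49, but mutant library 2 lay below control library 1. The mean of 0.20 ± 0.25 (SD, n = 3; 95% interval -0.33 to 0.74) did not pass the test, with an adjusted p of 0.729 by limma.

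Neither kinase partner of the D cyclins passed the test. Cdk4 (NM_009870) read 15.02, 14.74 and 14.69 in the mutants and 14.57, 14.79 and 14.77 in the controls. Mutant library 1 was the highest and control library 1 the lowest, while the other 4 libraries lay between 14.69 and 14.79. The ratios were 0.44, -0.05 and -0.08 (mean 0.11 ± 0.29, SD, n = 3; adjusted p = 0.865, limma), and without array 1 the mean was -0.06.

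Cdk6, the D cyclin kinase best known from blood cells, had the widest spread of the 10 genes. Its brightest probe (NM_009873) read 13.66, 14.67 and 13.19 in the mutants and 13.64, 13.72 and 14.34 in the controls. The highest and the lowest library were both mutants, libraries 2 and 3. The ratios were 0.02, 0.95 and -1.14, so that array 2 and array 3 differed by more than 4-fold, and the mean was -0.06 ± 1.05 (SD, n = 3; 95% interval -1.06 to 0.95; adjusted p = 0.965, limma). The SD was larger than that of 93.7% of all genes, whose median SD was 0.40. In the files' own coordinates, whose build is not named, this probe lies 7618 bases upstream of the most 3′ Cdk6 probe. The other NM_009873 probe, 13842 bases upstream of it, gave -0.39, 0.67 and -1.04, so the same arrays were high and low, and the most 3′ probe, designed on the cDNA clone AK030810 of unclassified product, gave 0.82, 0.39 and -0.36. Array 2 was above 0 and array 3 below 0 with all 3 probes.

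Cdk2, the partner of cyclins E and A, was read by 2 probes that ran in opposite directions on every array. The brighter probe, named for transcript variant 1 (NM_183417), read 10.87, 11.68 and 10.20 in the mutants and 11.20, 11.14 and 10.67 in the controls. Here too the highest and the lowest library were mutants. Its ratios were -0.33, 0.55 and -0.47 (mean -0.08 ± 0.55, SD, n = 3; adjusted p = 0.919, limma). The probe named for transcript variant 2 (NM_016756), 5603 bases nearer the 3′ end, gave 0.30, -0.14 and 1.21 (mean 0.45 ± 0.69). On array 3 the 2 probes were 1.68 apart, the largest gap between probes of 1 member on any array, and neither mean passed in a fit over all probes (adjusted p = 0.929 and 0.640, limma).

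**Figure D2:**
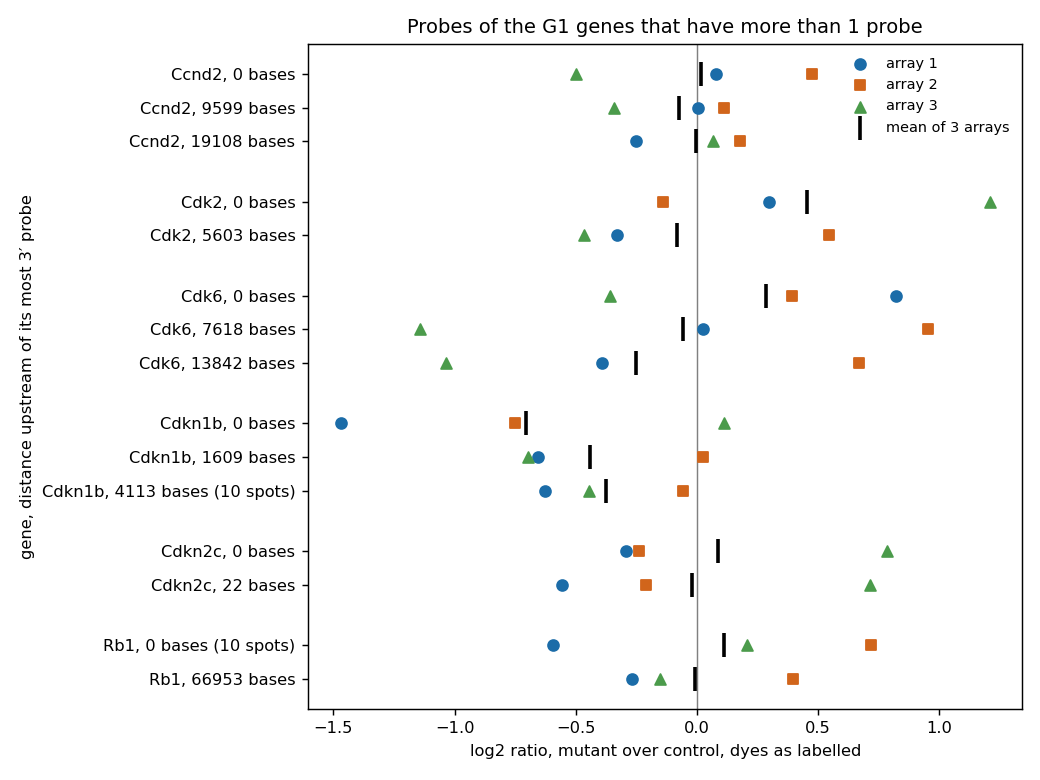
Ratios (log2, mutant over control) on arrays 1, 2 and 3 for the 15 probes of the 6 G1 genes with more than 1 probe, ordered by distance upstream of the gene's most 3′ probe in the files' own coordinates. Cdk6 probes are above 0 on array 2 and below 0 on array 3, the Cdk2 probes fall on opposite sides of 0, and all 3 Cdkn1b means lie left of 0.

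Of the inhibitors, Cdkn1b had the mean ratio farthest below 0 among the 10 genes. Its brightest probe was designed on the cDNA clone AK169586, which the files assign to Cdkn1b while describing its product as a hypothetical protein. It read 11.86, 12.42 and 13.15 in the mutants and 13.33, 13.17 and 13.04 in the controls. The controls lay close together, mutant libraries 1 and 2 lay below all of them, and mutant library 3 lay between controls 3 and 2. The ratios were -1.47, -0.75 and 0.11, a mean of -0.70 ± 0.79 (SD, n = 3) with a 95% interval of -1.53 to 0.12. By limma the adjusted p was 0.507 and the unadjusted p 0.082. The mean was -1.11 without array 3 (unadjusted p = 0.019, adjusted p = 0.401, limma) and -0.32 without array 1, so either array moved it by more than 1.5 times. Array 1 again holds the control library with the high stress-gene and neutrophil-marker levels given above.

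The other Cdkn1b probes, both on NM_009875, lie 4113 and 1609 bases further 5′. The first of these was printed as 10 spots, and it gave -0.63, -0.06 and -0.45 (mean -0.38 ± 0.29, SD, n = 3), with SDs between spots of 0.08 to 0.09 within an array. The single-spot probe gave -0.65, 0.03 and -0.70 (mean -0.44 ± 0.41). Both put array 3 well below 0, where the AK169586 probe put it at 0.11, and both put array 2 near 0, where the AK169586 probe read -0.75. Cdkn1b was the 1 gene of the 6 with several probes whose probe means all had the same sign. None of the 3 passed in the fit over all probes, with adjusted p values of 0.567 to 0.613 (limma).

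Cdkn1c (NM_009876) was the least variable member, with an SD larger than that of 13.8% of all genes. It read 9.44, 9.07 and 9.31 in the mutants and 9.72, 9.01 and 9.44 in the controls. The spread among the controls, 0.70, was larger than any difference within an array. The ratios of -0.28, 0.05 and -0.13 had a mean of -0.12 ± 0.16 (SD, n = 3; 95% interval -0.63 to 0.40; adjusted p = 0.835, limma).

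Cdkn2c read 12.33, 12.81 and 13.24 in the mutants and 12.89, 13.02 and 12.53 in the controls by its NM_007671 probe. Mutants held both the highest and the lowest level. The ratios of -0.56, -0.21 and 0.72 cancelled to a mean of -0.02 ± 0.66 (SD, n = 3; adjusted p = 0.984, limma). The U19596 probe, 22 bases away, gave -0.29, -0.24 and 0.78 (mean 0.08 ± 0.61), and these neighbouring probes differed by at most 0.27 on any array.

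Rb1 (NM_009029), the substrate that D cyclin kinases inactivate, read 10.77, 11.06 and 11.43 in the mutants and 11.36, 10.34 and 11.23 in the controls. Mutant library 3 was highest and control library 2 lowest. The ratios of -0.59, 0.72 and 0.20 had a mean of 0.11 ± 0.66 (SD, n = 3; adjusted p = 0.901, limma). This probe was printed as 10 spots, whose SDs within an array were 0.04, 0.04 and 0.11, far below the SD between arrays. A probe 66953 bases further 5′ in genomic distance gave -0.27, 0.40 and -0.15 (mean -0.0076 ± 0.36), with the same sign as the former on arrays 1 and 2 but not on array 3.

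**Figure D3:**
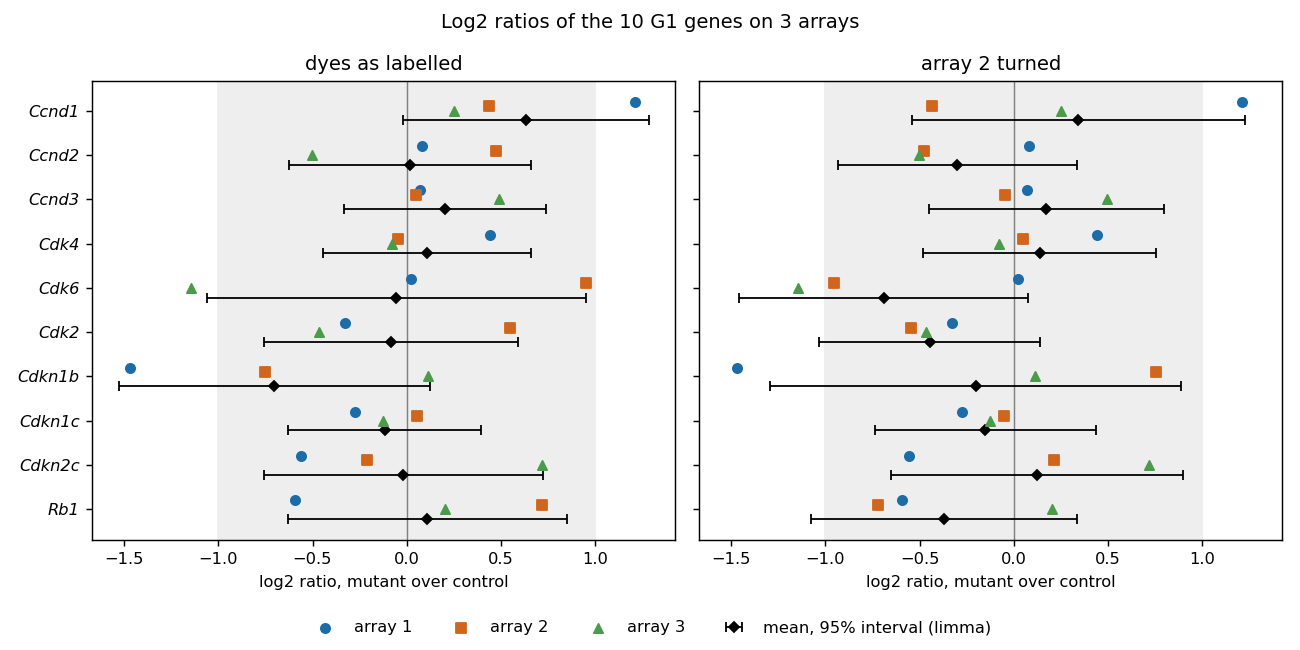
Log2 ratios of the 10 G1 genes on arrays 1, 2 and 3 with the mean and its 95% interval from limma, with the dyes as labelled (left) and with the sign of array 2 turned (right). The grey band marks a 2-fold change in either direction: 7 of 10 intervals lie inside it on the left and 5 on the right, and all 10 cross 0 in both panels.

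The variation between arrays was thus larger than that between spots for the 3 probes that were printed 10 times, and was shared by probes of the same gene in part. The median SD of the members' ratios over arrays was 0.53, beside 0.40 for all genes. For the 6 genes with more than 1 probe, all probes of a gene had the same sign in 9 of 18 combinations of gene and array, and the median range between probes of 1 gene on 1 array was 0.56. On array 1, 5 of 10 members were above 0, with ratios from -1.47 to 1.21 and a median of -0.13. On array 2, 7 were above 0, with ratios from -0.75 to 0.95 and a median of 0.24. On array 3, 5 were above 0, with ratios from -1.14 to 0.72 and a median of 0.02.

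Turning array 2 changed which members lay furthest from 0. The mean of Cdk6 became -0.69 (95% interval -1.46 to 0.08, unadjusted p = 0.070) and that of Cdk2 -0.45 (-1.03 to 0.14, unadjusted p = 0.111), while those of Ccnd1 and Cdkn1b were 0.34 and -0.20. In this setting Cdk2 and Cdkn1c were below 0 on all 3 arrays, which makes 2 of 10 members with 1 sign, beside 20.1% of all genes. No member passed, the adjusted p in limma being 0.9998 for all 10, and 0 of 10 had an unadjusted p under 0.05, beside 2.9% of all genes. Across the 11 alternative treatments that give 1 value per gene, Ccnd1 and Ccnd3 stayed above 0 and Cdkn1b and Cdkn1c below 0 in each, and the other 6 members changed sign in at least 1.

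The rest of the G1 pathway was taken from a list of 37 genes, of which 36 were measured. Cdkn2a was not among the genes tested. None of the 36 passed the adjusted threshold in limma. At an unadjusted p under 0.05, 3 were higher in the mutants, beside 4.81% of all genes, and 0 were lower, beside 5.32%. The mean ratio was above 0 for 23 and below 0 for 13, with a median of 0.16. Levels of 5 genes lay wholly above the controls (Ccne1, Ccne2, E2f4, Skp2 and Myc), beside 7.2% of all genes, and those of 0 genes wholly below, beside 11.7%. These levels are those of each gene's brightest probe. Both other Myc probes were below 0 on array 3, at -0.16 and -0.20, while the other Skp2 probe gave 0.53, 0.76 and 0.19.

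Cyclin E, which acts with Cdk2 after the D cyclins, gave 2 of these 3 genes. Ccne1 read 13.06, 12.52 and 12.57 in the mutants and 12.19, 11.75 and 11.90 in the controls, so every mutant lay above every control. Its ratios of 0.86, 0.77 and 0.67 lay close together, with a mean of 0.77 ± 0.10 (SD, n = 3; unadjusted p = 0.0097, adjusted p = 0.463, limma). Ccne2 read 11.65, 11.89 and 11.22 in the mutants and 10.68, 11.12 and 10.95 in the controls, also without overlap, with a mean ratio of 0.67 ± 0.36 (adjusted p = 0.468). Their other probes gave means of 0.65 and 0.70.

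E2f4, an E2F factor that acts with pocket proteins mainly as a repressor, read 10.07, 9.58 and 9.40 in the mutants and 8.78, 8.89 and 8.85 in the controls. All mutants again lay above all controls, with a mean ratio of 0.84 ± 0.39 (SD, n = 3; adjusted p = 0.463, limma). These 3 genes depend on the orientation of array 2. With it turned, the means of Ccne1, Ccne2 and E2f4 were 0.25, 0.16 and 0.38, and 0 of the 36 genes had an unadjusted p under 0.05. Without array 1, Ccne1 alone had an unadjusted p under 0.05 (mean 0.72), and without array 2 only E2f4 (0.92).

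Markers of cycling cells, a list of 12 genes that are all well above background in every library, lay on the same side as the E cyclins: 10 of 12 had a mean ratio above 0, beside 45.4% of all genes, with a median of 0.29. The 2 below 0 were Mki67, at -0.24 ± 0.26, and Birc5, at -0.07 ± 0.52 (SD, n = 3). The list's summed level was 17.39, 17.25 and 17.26 in the mutants and 17.09, 17.05 and 17.05 in the controls. The list's largest ratios were those of Aurkb, a mitotic kinase (0.90 ± 0.22), and Mcm5, a subunit of the replicative helicase (0.87 ± 0.30), and 0 of 12 passed the adjusted threshold. With array 2 turned, the list's median was 0.13, and Aurkb and Mcm5 had means of 0.36 and 0.40.

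Markers of some other cell types also lay apart in summed level between the groups as labelled, but not those of all. The 4 measured B cell markers summed to 11.43 to 11.68 in the mutants and 11.57 to 12.35 in the controls. For the 7 measured erythroid markers the sums were 13.27 to 14.30 and 13.96 to 15.37. Sums of the neutrophil markers, given above, overlapped as well. The summed level of 9 stem cell markers was 14.24 to 14.46 in the mutants and 14.97 to 15.16 in the controls. Of the 9, 8 were well above background in every library. The ratios farthest from 0 were those of Procr (-1.57 ± 0.91, SD) and Hlf (-1.21 ± 0.71). The list was split, with 4 mean ratios above 0, 5 below and a median of -0.04. Levels of 2 genes, Slamf1 (1.16 ± 1.05) and Tek (0.59 ± 0.41), lay wholly above the controls, and those of 3 wholly below. Early lymphoid markers, 6 genes of which Il7r was not above background in every library, summed to 14.40 to 14.68 in the mutants and 15.37 to 16.003 in the controls, led by Dntt (-2.63 ± 1.32). Of the lineage markers used in the gate, 5 of 6 were measured, 4 of them above background in every library, and they summed to 11.46 to 11.82 in the mutants and 12.15 to 12.52 in the controls, led by Itgam (-1.05 ± 0.23). The 6 measured macrophage markers summed to 13.77 to 14.05 in the mutants and 13.48 to 13.66 in the controls. Of the 6, 4 had a mean ratio above 0 and 2 below, with a median of 0.21, or 0.16 with array 2 turned. Levels of mutants and controls overlapped for each of the 6, whereas 18.9% of all genes had levels without overlap. None of these genes passed the adjusted threshold, and with array 2 turned the means of Procr, Hlf, Dntt and Itgam were -0.11, -0.07, -0.54 and -0.35. Those of Slamf1 and Tek were then -0.36 and 0.48. The part of a different mix of cell types, or of a different share of cycling cells, in the E cyclin and member ratios was not tested.

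Lower values among the other G1 genes were led by Cdkn1a, the p21 member of the CIP/KIP family. It read 10.58, 10.53 and 10.46 in the mutants and 12.69, 11.31 and 10.33 in the controls. The mutants were almost level, the controls ran from the lowest to the highest value of the 6, and the ratios were -2.11, -0.79 and 0.14 (mean -0.92 ± 1.13, SD, n = 3; adjusted p = 0.506, limma). Without array 1 the mean was -0.32. Cdkn1b by its AK169586 probe had the same order of arrays as Cdkn1a, 1 lowest and 3 highest. By its other probes, array 2 was highest. The median of the immediate-early and stress genes also rose from array 1 to array 3, at -4.70, -0.48 and -0.10. The part of those genes' differences in the inhibitor ratios was not tested. Rbl2, the pocket protein p130, had a mean of -0.49 ± 0.23 (adjusted p = 0.4999), and Fbxw7, the F-box protein that targets cyclin E for destruction, one of -0.29 ± 0.08 (adjusted p = 0.608), both below 0 on all 3 arrays by these probes. Their other probes did not run the same way throughout: that of Rbl2 gave -0.03, -0.62 and 0.29, and that of Fbxw7 -0.09, 0.70 and -0.18. With array 2 turned, the means of the brighter probes were -0.13 for Rbl2 and -0.12 for Fbxw7.

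**Figure D4:**
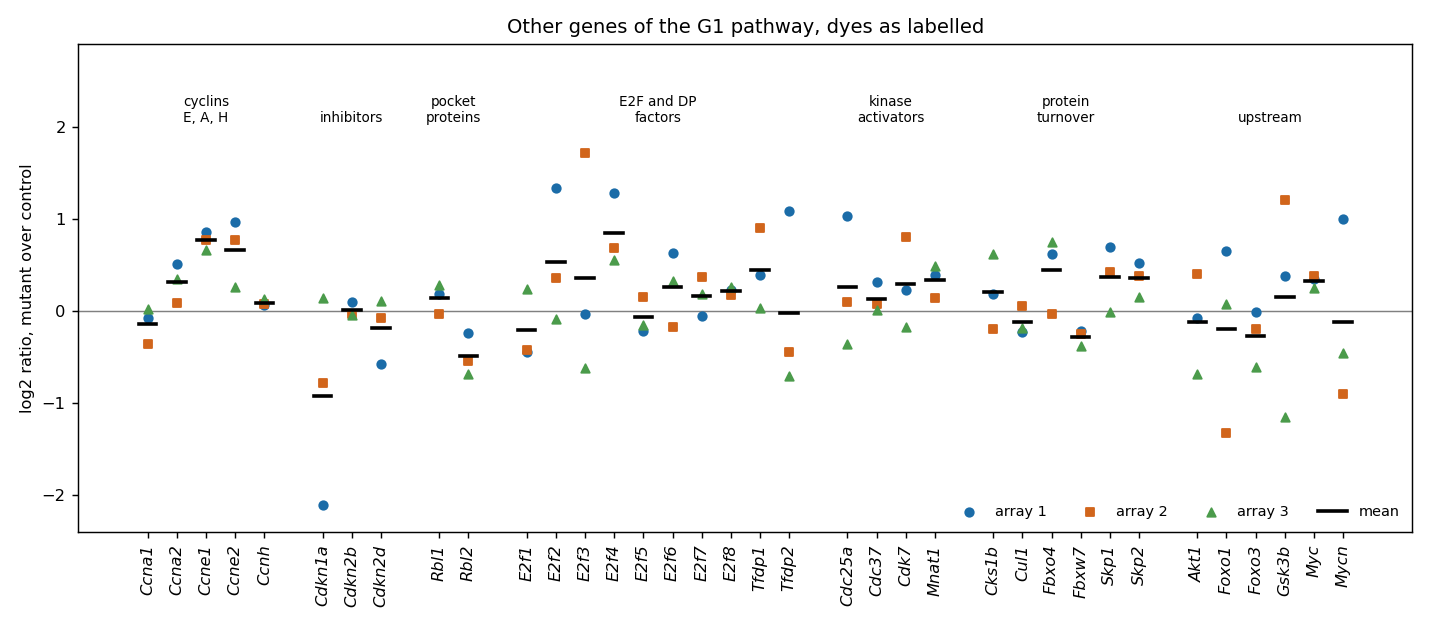
Log2 ratios on arrays 1, 2 and 3 and their mean (bar) for the 36 measured genes of the G1 pathway outside the 10 described above, grouped by role, with the dyes as labelled. Ccne1, Ccne2 and E2f4 lie above 0 on every array, and Cdkn1a spans from -2.11 on array 1 to 0.14 on array 3.

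Since Mef2c is a transcription factor, the 250 bases before the start sites of the members were searched for letters of the MEF2 motif. RefSeq windows (GRCm38.p6) were matched for 6 members, with 8 windows, and those of Ccnd1, Ccnd2, Cdkn1c and Rb1 are not analysed here. A MEF2 motif on either strand stood in 1 of the 8 windows, that of Cdkn1b, and in 2.92% of all 32851 windows of this length. The E2F motif, taken as TTTCCCGC, TTTCGCGC, TTTGCCGC or TTTGGCGC on either strand, stood in that of Cdk2 only, and in 1.86% of all windows. GC boxes (GGGCGG on either strand) stood in 6 of 8, and in 32.7% of all windows. The AP-1 letters TGACTCA were in 0 of 8 and 4.46% of all, and TATAAA in 1 of 8, that of Cdk6, and 12.4% of all. A match describes the letters and says nothing of binding. The windows with the MEF2 and the E2F letters are shown 5′ to 3′ on the gene's strand, each ending at the base before the start site, because these factors are the one deleted here and the one that G1 kinases release. Capitals mark the MEF2 letters of Cdkn1b, which begin 237 bases before the start, in the window chr6:134920151-134920400 on the plus strand. They also mark the E2F letters of Cdk2, which begin 140 bases before its start, in the window chr10:128705052-128705301 on the minus strand. MEF2 and E2F letters overlap no other match in these windows.
Cdkn1b: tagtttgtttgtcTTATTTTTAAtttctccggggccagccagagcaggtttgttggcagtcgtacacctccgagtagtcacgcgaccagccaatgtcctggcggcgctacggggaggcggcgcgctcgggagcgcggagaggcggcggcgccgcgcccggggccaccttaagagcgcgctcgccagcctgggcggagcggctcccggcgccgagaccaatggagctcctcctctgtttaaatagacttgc
Cdk2: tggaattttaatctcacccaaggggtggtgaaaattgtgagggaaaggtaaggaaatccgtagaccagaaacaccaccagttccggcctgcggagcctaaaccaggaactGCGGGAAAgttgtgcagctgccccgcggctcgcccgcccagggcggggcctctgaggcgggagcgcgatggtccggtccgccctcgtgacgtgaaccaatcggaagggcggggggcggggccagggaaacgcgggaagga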

How the data were processed

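The intensity values deposited by the authors are spot signals on a linear scale, and per the file headers come from Agilent Feature Extraction 9.5.1.1. The same deposited files give processed intensities and log10 of Cy5 over Cy3. The authors also deposited log2 ratios per spot, for which the submitters' processing notes name limma without further settings. Per the labels' protocols, RNA was amplified by a PCR of its cDNA (SuperAmp) and 250 ng was labelled.

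Mean intensities were corrected with normexp (offset 50) and loess in limma 3.58.1 (R 4.3.3), control spots having weight 0. Outlier spots were dropped (300, 331 and 252 on arrays 1, 2 and 3) and 0 were saturated. Levels were Aquantile-normalized as well. Probes well above background in 1 channel on at least 2 arrays were kept (32898 of 41174), and a gene took its brightest. Ratios were tested against 0 (lmFit, eBayes), Benjamini-Hochberg adjusted over 22214 genes. The number of arrays limits precision. In simulated ratios of 22214 genes, 47 of 66 changed 16-fold were recovered, with 1 false call. All 3 arrays lay on 1 slide.

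Deposited ratios correlated with the scanner's Cy5 over Cy3 at -0.947, 0.935 and -0.939. Members and lists were chosen with earlier results of these data known. The naming rule took Mef2c, the members, Kit, Ly6a, other G1 genes with an unadjusted p under 0.05 or among the 3 largest mean ratios in each direction, and the 2 largest of each marker list. Skp2, Myc, Slamf1, Tek, Mki67 and Birc5 were named after their values were seen. Alternatives were other background settings, median centring, processed signals, array 2 turned, each array left out and no filter. Others were the mean of a gene's probes, a fit over all probes, and the deposited ratios. The deposited ratios were used with the sign of array 2 set to its labelled dyes, so they do not check that array's direction.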

Additional observations from a re-analysis of the deposited data

How the results depend on the processing

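Under every alternative 0 genes passed the adjusted threshold, members and other G1 genes included. Each array's ratio sets 1 mutant against 1 control library, so the test is already paired by array. Median centring, which replaces loess, moved the median of all genes to -0.18. It left 2 members above 0 in place of 5, put 1 member (Cdkn1b) and 1 other G1 gene lower at an unadjusted p under 0.05, and put 551 of 2872 such genes higher, against 1069 of 2251. Ccnd2, Cdk4 and Rb1 then had means of -0.13, -0.066 and -0.037. With array 2 turned, 644 genes had an unadjusted p under 0.05, of which 336 were higher and 0 were other G1 genes. The means of Ccnd2, Cdkn2c and Rb1 became -0.30, 0.12 and -0.37, and those of Kit, Pax5 and Hba-a1, which were -0.36, -0.43 and -1.68 as labelled, became 0.067, 0.068 and 0.023. Leaving out each array in turn gave 1297 to 2731 genes at an unadjusted p under 0.05 (634 to 1354 higher), 1 to 3 other G1 genes higher and 0 to 1 lower, 0 to 1 members lower and a median of the members of -0.20 to 0.085. The ranges of the means were -0.21 to 0.28 for Ccnd2, -0.062 to 0.20 for Cdk4, -0.56 to 0.49 for Cdk6, -0.40 to 0.11 for Cdk2, -0.39 to 0.25 for Cdkn2c, -0.20 to 0.46 for Rb1 and -0.44 to 0.094 for Mef2c. With the mean of a gene's probes, 1 member, Ccnd1, was higher at an unadjusted p under 0.05, and the means of Ccnd2, Cdk2, Cdkn2c and Mef2c were -0.020, 0.19, 0.033 and 0.13. With processed signals Ccnd2 and Cdkn2c were at -0.0010 and 0.0020. Without the filter on dim probes, 1 other G1 gene was lower at an unadjusted p under 0.05. Why each of these values moved was not tested. All members lay well above background in every library.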
